A study of Saccharomyces cerevisiae with 4 samples.

Results

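The nuclear genes of the mitochondrial protein import machinery were compared between AAE13 and control cultures of the yeast Saccharomyces cerevisiae. Nearly all mitochondrial proteins are made in the cytosol and carried in through the outer membrane by the TOM complex. From there the SAM complex builds barrel proteins into the outer membrane, the MIA pathway folds proteins of the intermembrane space by oxidation, and the TIM23 and TIM22 complexes move proteins through or into the inner membrane. Peptidases then cut off the targeting signals. The genes were taken from a list of 36 names, and a probe counted when its annotated symbol, or the current name of an older symbol, was on the list. Of the 36 genes, 28 had a probe, among 4072 named genes measured in all. The other 8, TIM21, TIM50, PAM17, PAM18, SAM35, SAM50, MIA40 and OCT1, were not analysed here. The probe named IMP2 is uncertain, since IMP2 is the current name of a peptidase subunit gene and also an older name of IMP21.

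The AAE13 cultures carried pAG305GPD-AAE13, and the control cultures pAG305GPD-ccdB, the same integrating vector with the ccdB cassette of the empty vector. AAE13 is a plant malonyl-CoA synthetase, and the GPD promoter is a strong promoter active in growing cells. Both strains grew shaken at 30 °C in SD drop-out medium. Malonate, the substrate of AAE13, was fed to AAE13 and control cultures alike at 0.2 mM once the OD600 had reached 0.1, and cells were collected in mid-log phase. Each of 4 two-colour arrays paired 1 of 4 AAE13 cultures with 1 of 4 ccdB cultures, and the dyes were swapped: arrays 1 and 3 had AAE13 in Cy5, the other two arrays had it in Cy3. The labels call the cultures biological replicates but do not say whether the strains came from separate transformants.

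Values are log2 ratios of AAE13 over ccdB, each array centred on its median, so a ratio of 0 is that of the typical probe and a ratio of 1 is a 2-fold difference. No source used here states the direction of the deposited ratios. If they run as ccdB over AAE13, every sign given here turns. AAE13 over ccdB is the likely reading because the title and design text of the series name the transgenic strain first. In the titles of the single arrays the order follows the dyes, with AAE13 first where it was in Cy5. Arrays of opposite dye orientation correlated at 0.575 on average and arrays of the same orientation at 0.691. With the ratios read as Cy5 over Cy3 on every array, 0 of the 28 import genes and 0 of 4072 genes passed in limma, with 1 import gene and 154 genes in all at an unadjusted p under 0.05. The deposited array medians lay between -0.173 and 1.408, and left uncentred all named genes had a median of 0.58. A bulk ratio cannot tell less RNA per cell from fewer cells that express a gene.

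As a group, the 28 import genes with a probe had a median ratio close to that of all named genes. Of 28 import genes, 1 rose, 1 fell and 26 did not pass limma's test at an adjusted p under 0.05. The background over 4072 genes was 24.8% called, with 13.0% called higher and 11.8% called lower, beside 7.14% of the import genes. That gap depended on the setting: without moderation 3.57% of import genes and 3.51% of all genes passed, and without array 4 the shares were 7.14% and 10.5%. No test between the import genes and the rest was run. ERV1, the sulfhydryl oxidase of the intermembrane space, rose, and TOM71, a minor receptor of the outer membrane, fell. Both differed about 2-fold, and 12.5% of all genes were called with at least that size. The median log2 ratio of the import genes was -0.03, against -0.02 for all named genes. Single import genes ran from -1.03 to 1.06, and their means had an SD of 0.42 between genes, against 0.77 over all named genes.

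**Figure D1:**
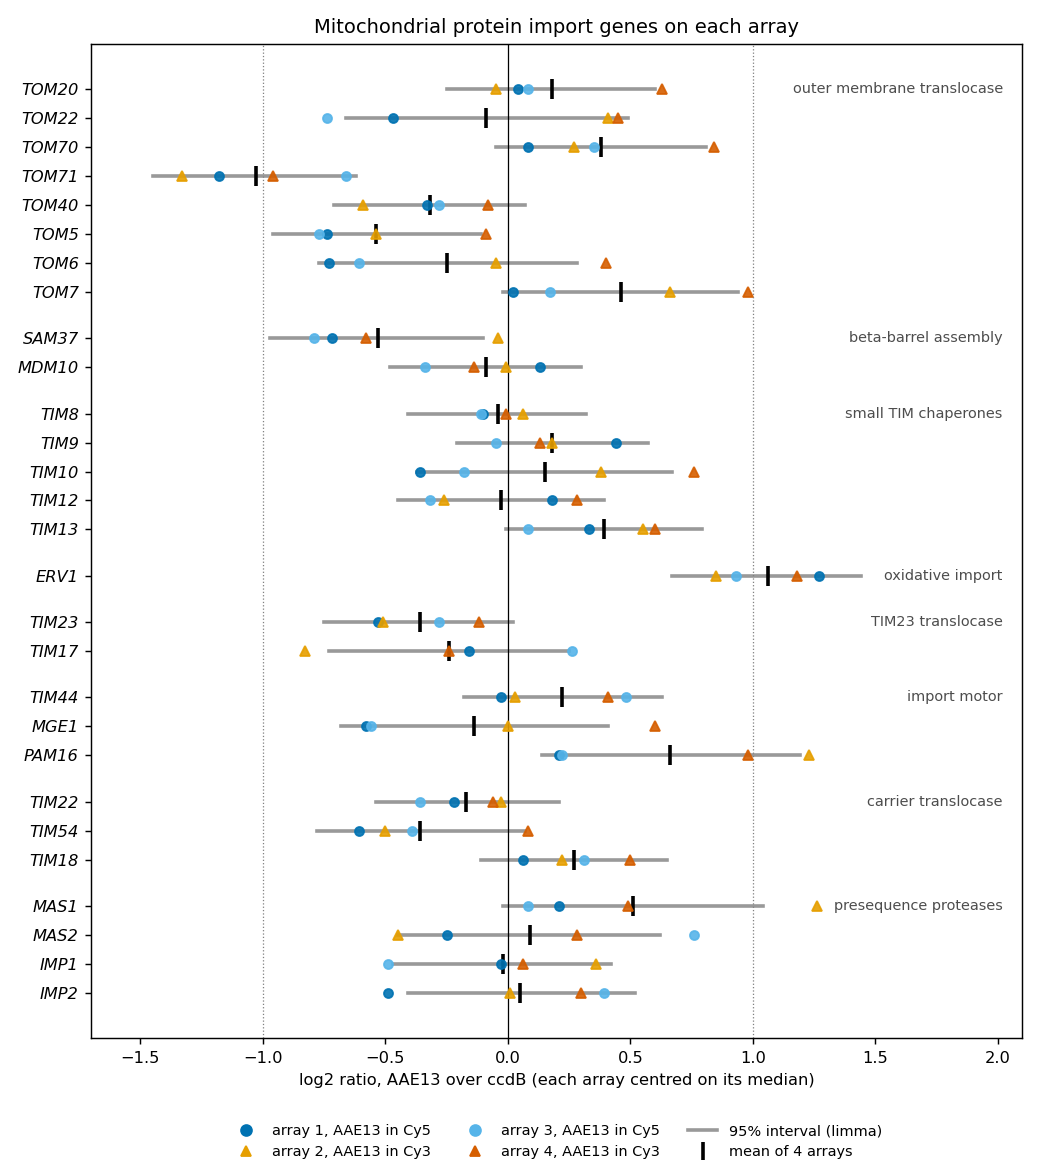
Log2 ratio of AAE13 over ccdB (horizontal axis) for the 28 import genes with a probe, in groups by role. Circles are arrays with AAE13 in Cy5 and triangles arrays with AAE13 in Cy3, black ticks are means of 4 arrays, grey bars are 95% intervals from limma, and dotted lines mark 2-fold. ERV1 lies between 0.85 and 1.27 and TOM71 between -1.33 and -0.66, and most other genes lie on both sides of 0 or close to it.

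The intervals show how large a difference the arrays leave room for. For 24 of 28 import genes the 95% interval from limma lay within 2-fold in either direction, against 61.6% of all genes. The exceptions were ERV1, TOM71, PAM16, whose interval reached 1.19, and MAS1, whose interval reached 1.04. Of the 28 import genes, 13 had 1 sign on every array, the same share as the 46.4% of all genes measured on all arrays. The share of import genes above 0 also moved between arrays, with 11 on array 1, 14 on array 2, 12 on array 3 and 19 on array 4.

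Erv1 is a flavoprotein that takes electrons from the import receptor Mia40, so that Mia40 can go on oxidising proteins as they enter the intermembrane space, and hands them to cytochrome c. The log2 ratio of ERV1 was 1.27 on array 1, 0.85 on array 2, 0.93 on array 3 and 1.18 on array 4. All of these were above 0. Its mean was 1.06 ± 0.20 (SD, n = 4), a 2.08-fold rise (limma adjusted p = 0.00464). With the ratios read as Cy5 over Cy3 its mean was 0.04 (adjusted p = 0.999). Under the other alternatives tried its adjusted p stayed between 0.00142 and 0.0499 under the alternatives tried. In the reference assembly R64 the next protein-coding gene on one side is MSP1, which encodes an outer membrane ATPase that removes misplaced proteins. Its mean ratio was 0.21 ± 0.59 over 4 arrays (SD), short of the threshold in limma (adjusted p = 0.54).

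At the outer membrane, Tom20, Tom22 and Tom70 are the receptors that recognise incoming proteins. Tom70 binds precursors of inner membrane carriers in particular, and Tom71, encoded by TOM71, is its less abundant paralogue. In array order its log2 ratios were -1.18, -1.33, -0.66 and -0.96, below 0 on every one. Its mean was -1.03 ± 0.29 (SD, n = 4), a 2.05-fold fall (limma adjusted p = 0.00671). The call was lost with the arrays not centred, where the ratio was -0.43 (limma adjusted p = 0.478) beside a median of 0.58 over all named genes. It was also lost in a test without moderation (adjusted p = 0.0705). The neighbouring gene ORC6, a subunit of the origin recognition complex, was at -0.15 ± 0.10 (SD, n = 4) and did not pass (limma adjusted p = 0.522).

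TOM70 itself had 0.08, 0.27, 0.35 and 0.84, all above 0, and a mean of 0.38 ± 0.32 (SD, n = 4) that did not pass (limma adjusted p = 0.163). The ratios of the paralogues did not overlap: TOM70 exceeded TOM71 by 1.26, 1.60, 1.00 and 1.80 on arrays 1 to 4. That is a mean difference of 1.42 ± 0.35 (SD, n = 4), or 2.67-fold. An exact sign-flip test, two-sided, gave p = 0.125, the smallest value 4 arrays allow, and p = 0.292 adjusted over the 7 partner pairs compared. These pairs were picked after the ratios had been seen. Probes of paralogues can bind each other's transcripts, which was not tested.

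The main receptors and the channel did not pass. TOM20 was at 0.18 ± 0.31 and TOM22 at -0.09 ± 0.61 (SD, n = 4; limma adjusted p = 0.502 and 0.817). TOM22 had -0.47 and -0.74 on arrays 1 and 3 but 0.41 and 0.45 on arrays 2 and 4. TOM40, the barrel that forms the pore, had -0.33, -0.59, -0.28 and -0.08, with a mean of -0.32 ± 0.21 (SD, n = 4; limma adjusted p = 0.196). All its values were below 0, and its interval from -0.71 to 0.07 leaves out a 2-fold fall. The small subunits Tom5, Tom6 and Tom7 help to assemble and stabilise the complex. They differed among themselves in sign: TOM5 was at -0.54 ± 0.31, TOM6 at -0.25 ± 0.52 and TOM7 at 0.46 ± 0.44 (SD, n = 4; limma adjusted p = 0.0677, 0.452 and 0.14). TOM5 was below 0 and TOM7 above 0 on every array, while TOM6 reached 0.40 on array 4.

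Sam37 is a cytosolic-side subunit of the SAM complex, and Mdm10 serves both SAM and the ERMES tether between mitochondria and endoplasmic reticulum. SAM37 had log2 ratios of -0.72, -0.04, -0.79 and -0.58, a mean of -0.53 ± 0.34 (SD, n = 4), and did not pass (limma adjusted p = 0.0734). Its value on array 2 was close to 0, and without that array it passed, at -0.70 (adjusted p = 0.0475). Without array 1, 3 or 4 SAM37 did not pass (limma adjusted p = 0.228, 0.187 and 0.198). MDM10 stayed near 0, at -0.09 ± 0.20 (SD, n = 4; limma adjusted p = 0.718).

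The small TIM proteins escort hydrophobic precursors across the intermembrane space. Tim9 and Tim10 form a hexamer that carries many of them, Tim8 and Tim13 form a similar one, and Tim12 sits on the TIM22 complex. None of these 5 genes passed, and their means ran from -0.04 for TIM8 to 0.39 for TIM13. TIM8 was among the steadiest import genes, with -0.10, 0.06, -0.11 and -0.01 and a 95% interval from -0.41 to 0.32. TIM13 was above 0 on every array, at 0.39 ± 0.24 (SD, n = 4; limma adjusted p = 0.132), and TIM8 lay below it by 0.44, 0.49, 0.19 and 0.61 on arrays 1 to 4. This difference between the hexamer partners averaged -0.43 ± 0.18 (SD, n = 4). Its exact sign-flip p was again 0.125, the smallest 4 arrays allow, and 0.292 adjusted over the 7 pairs. TIM9 at 0.18 ± 0.20, TIM10 at 0.15 ± 0.51 and TIM12 at -0.03 ± 0.31 (SD, n = 4) had both signs among their arrays.

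**Figure D2:**
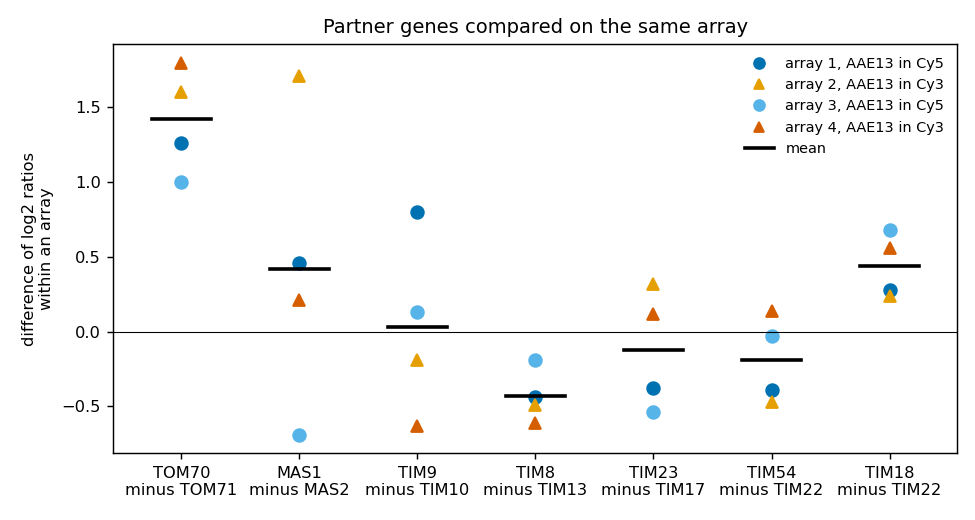
Difference between the log2 ratios of partner genes on the same array (vertical axis), for 7 pairs of paralogues or complex partners. Circles are arrays with AAE13 in Cy5, triangles arrays with AAE13 in Cy3, and bars are means of 4 arrays. TOM70 minus TOM71 lies between 1.00 and 1.80, and the other pairs have means between -0.43 and 0.44.

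Tim23 and Tim17 form the core of the TIM23 translocase for proteins with a cleavable presequence. TIM23 had -0.53, -0.51, -0.28 and -0.12, below 0 on every array, with a mean of -0.36 ± 0.20 (SD, n = 4; limma adjusted p = 0.146). TIM17 averaged -0.24 ± 0.45 over 4 arrays (SD), was not called by limma (adjusted p = 0.428), and reached 0.26 on array 3. The order of the pair was not the same on all arrays, TIM23 being lower than TIM17 on arrays 1 and 3 alone.

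The import motor pulls the chain into the matrix with the Hsp70 protein Ssc1, which Tim44 tethers to the channel, Mge1 recycles by exchanging its nucleotide, and Pam16 helps to regulate. PAM16 had the largest mean among import genes that did not pass. Its log2 ratios were 0.21, 1.23, 0.22 and 0.98, all above 0 and higher on arrays 2 and 4, with a mean of 0.66 ± 0.52 (SD, n = 4; limma adjusted p = 0.0682). PAM16 passed with a dye term (adjusted p = 0.0189), with the arrays not centred (0.0216) and without array 3 (0.0454). Uncentred, its ratio was 1.27, beside a median of 0.58 over all named genes. PAM16 did not pass without array 1, 2 or 4 (limma adjusted p = 0.0831, 0.21 and 0.223), nor in a test without moderation (adjusted p = 0.217). TIM44 was at 0.22 ± 0.26 and MGE1 at -0.14 ± 0.56 (SD, n = 4), and neither passed (limma adjusted p = 0.374 and 0.698). MGE1 was at -0.58 and -0.56 on arrays 1 and 3 but at 0.00 and 0.60 on arrays 2 and 4.

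The TIM22 complex inserts carrier proteins into the inner membrane. TIM22, its channel, was at -0.17 ± 0.15, TIM54, which exposes a large domain to the intermembrane space, at -0.36 ± 0.30, and TIM18 at 0.27 ± 0.18 (SD, n = 4). No gene of the 3 passed (limma adjusted p = 0.47, 0.184 and 0.259). TIM18 was above 0 on every array and TIM22 below 0. They differed by 0.28, 0.24, 0.68 and 0.56 on arrays 1 to 4, with a mean of 0.44 ± 0.21 (SD, n = 4). The exact sign-flip p was 0.125, the smallest 4 arrays allow, and 0.292 adjusted over the 7 pairs.

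Mas1 and Mas2 are the subunits of the matrix processing peptidase that removes presequences, and Imp1 and Imp2 belong to the inner membrane peptidase. MAS1 had 0.21, 1.26, 0.08 and 0.49, all above 0, and a mean of 0.51 ± 0.53 (SD, n = 4; limma adjusted p = 0.137). MAS2 had -0.25, -0.45, 0.76 and 0.28, a mean of 0.09 ± 0.55 (SD, n = 4), with both signs. The difference between the subunits was 0.42 ± 0.99 (SD, n = 4), no larger than its spread between arrays. IMP1 was at -0.02 ± 0.35 and the probe named IMP2 at 0.05 ± 0.40 (SD, n = 4).

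The ratios of import genes leaned to the arrays with AAE13 in Cy3. There, 21 of 28 import genes (75.0%) had a higher mean than on the Cy5 arrays, against 51.9% of all named genes, and the median difference, Cy5 arrays minus Cy3 arrays, was -0.24. TOM22 had the largest such difference, -1.03, and was at -0.60 on the Cy5 arrays and 0.43 on the Cy3 arrays. The others with an unadjusted dye p under 0.05 in limma were TOM6, TOM7, TIM10, MGE1 and PAM16. Over all genes 17.7% had such a p, and 0 of 28 import genes and 0 of 4072 genes had a dye difference at an adjusted p under 0.05 in limma. ERV1 and TOM71 differed little between orientations, by 0.08 and 0.23. In a fit with a dye term 4 more import genes passed: PAM16 and TOM7 were higher (adjusted p = 0.0189 and 0.0482) and TOM5 and SAM37 lower (adjusted p = 0.0396 and 0.0466). The share called rose over all named genes as well, from 24.8% to 31.3%, beside 7.14% to 21.4% of the import genes. The respiratory complex genes described below also leaned to the Cy3 arrays, 28 of 31 (90.3%) with a median difference of -0.87. With ratios of AAE13 over ccdB, each mean holds both orientations equally, so a constant dye effect cancels in it. For the same reason a dye term cannot move the mean of a gene measured on all 4 arrays. The unchanged means of the import genes in that fit are therefore no check on the dyes.

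**Figure D3:**
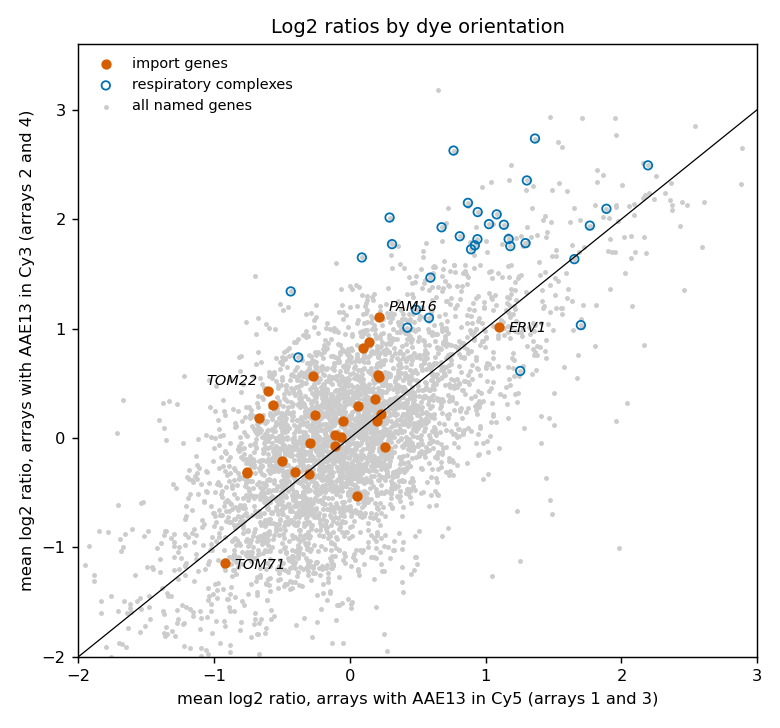
Mean log2 ratio on the arrays with AAE13 in Cy5 (horizontal axis) and in Cy3 (vertical axis), with the line of equal values. Filled points are the 28 import genes, open circles the nuclear respiratory complex subunits and grey points all named genes; the axes are limited to the range around these lists. ERV1 and TOM71 lie near the line, and TOM22 and PAM16 lie above it.

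A list of related genes, mainly of import, membrane insertion and mitochondrial protein folding, was set beside the import list. It also held the ERMES genes MMM1, MDM12 and MDM34, the protease genes AFG3, YTA12 and YME1, and OM45. Among the 21 listed genes with a probe there were 7 that rose and 2 that fell (42.9% called, beside 24.8% of all genes), while 12 did not pass, with a median log2 ratio of 0.26. MMM1, MDM34 and OM45 were among those that rose. The largest rises were those of HSP78, a matrix disaggregase, at 1.23 ± 0.66, MBA1, which docks the mitochondrial ribosome at the inner membrane, at 1.08 ± 0.34, and BCS1, an ATPase that inserts the Rieske protein of the bc1 complex, at 1.01 ± 0.57 (SD, n = 4; limma adjusted p = 0.0139, 0.00677 and 0.0205). The chaperonin genes HSP10 and HSP60, whose products fold imported proteins in the matrix, fell, at -1.10 ± 0.36 and -0.95 ± 0.67 (SD, n = 4; limma adjusted p = 0.00665 and 0.0362). Neither chaperonin gene passed with the arrays not centred, at -0.49 and -0.34 (limma adjusted p = 0.404 and 0.574). The median over all named genes was then 0.58. HSP60 did not pass without array 1, 2 or 4 (limma adjusted p = 0.076, 0.0776 and 0.11). Without array 4, HSP78 and BCS1 did not pass either (adjusted p = 0.0749 and 0.0739), and 1 of these 21 genes was called higher and 1 lower (9.52%, beside 10.5% of all genes). SSC1, the gene of the motor's Hsp70, averaged -0.08 ± 0.68 over 4 arrays (SD) and was not called by limma (adjusted p = 0.835).

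Some of these genes work with import genes or resemble one another. Of the ERMES genes, MMM1 and MDM34 both passed, at 0.78 ± 0.11 and 0.78 ± 0.47 (SD, n = 4; limma adjusted p = 0.0123 and 0.0368), while MDM12, at -0.32 ± 0.29, and MDM10 did not. COX18 and OXA1 encode related insertases of the inner membrane, and COX18 passed at 0.85 ± 0.28 while OXA1 did not, at -0.11 ± 0.21 (SD, n = 4; limma adjusted p = 0.0133 and 0.663). That a gene passed and its relative did not is no test of a difference between them.

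Transcripts for proteins that the machinery imports gave mixed values. Of 31 nuclear genes for subunits of the bc1 complex, cytochrome c oxidase and ATP synthase, 27 rose and 0 fell, beside 13.0% higher and 11.8% lower over all genes, with a median of 1.38 and array medians of 0.75, 1.82, 1.11 and 1.93. Of 63 mitochondrial ribosomal protein genes 3 rose and 0 fell, with a median of 0.11. Without moderation 3 of the 31 respiratory genes passed, all higher, and without array 1 or array 4 none of the ribosomal genes passed. The import genes had array medians of -0.13, 0.00, -0.15 and 0.29, below the respiratory medians on every array. All 31 respiratory genes had a mean above 0, against 13 of 28 import genes. No test between these lists was run. Genes encoded in mitochondrial DNA were on none of these lists. Among them COX1, COX2 and COX3 were at 7.5, 1.90 and 4.90 (limma adjusted p = 6.93e-06, 0.0139 and 4.91e-05). COB, at 2.3, and ATP6, at -0.05, did not pass (limma adjusted p = 0.351 and 0.91). Whether the strains differed in their mitochondrial DNA was not tested.

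**Figure D4:**
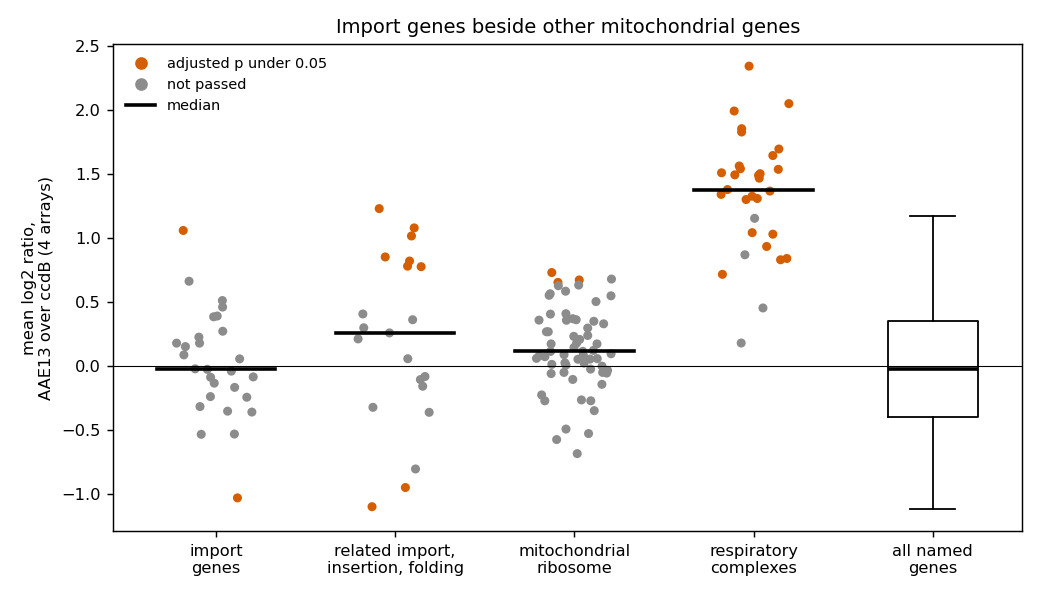
Mean log2 ratio of AAE13 over ccdB on 4 arrays (vertical axis) for the genes of each list, with medians as bars and all named genes as a box (quartiles, whiskers at the 5th and 95th percentiles). Coloured points passed limma's test at an adjusted p under 0.05. The import genes centre on -0.03 with 2 coloured points, and the respiratory complex genes centre on 1.38 with 27.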

How the data were processed

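The authors deposited 1 table of log2 ratios for 4 two-colour arrays and 6256 probes, with 4 missing values. Base 2 was inferred from the values, and no source used here gives the scanner software, background correction or normalization. No spot intensities were analysed, so signal over background is unknown, and the number of arrays limits the precision.

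Each array was centred on its median. Probes took gene symbols from the platform annotation (1 gene for 4075 probes, none for 2181). Through the gene table of assembly R64, 125 older symbols were updated, 5 of them import genes; probes of a gene were averaged, and genes with values on at least 3 arrays were kept. Log2 ratios of all 4072 genes were tested against 0, two-sided, by limma's moderated linear model (version 3.58.1, run under R 4.3.3), and p-values were Benjamini-Hochberg adjusted over all genes. The script was tested on simulated data. Figures used matplotlib 3.10.9.

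Every import gene with a probe is named. Of the related genes, up to 3 of the largest called changes in each direction are named by rule. SSC1, MMM1, MDM34, MDM12, OM45, AFG3, YTA12, YME1, COX18, OXA1, the partner pairs and the neighbouring genes were added after their values were seen. The import genes and lists were chosen with earlier results of these data known. Alternatives covered the direction reading, a dye term, centring, scaling, moderation, array weights, the missing-value filter, unnamed probes, thresholds and leaving out each array. Limma's p-values set each mean ratio against the spread between these arrays, with the variance of each gene moderated by that of all genes. Without moderation 143 of 4072 genes passed, against 1011 with it.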

Additional observations from a re-analysis of the deposited data

How the results depend on the processing

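ERV1 passed under every alternative that kept the reading of the ratios as AAE13 over ccdB. Scaling the arrays, robust moderation, keeping genes measured on all arrays, adding unnamed probes and a threshold of 0.01 changed no call among the 28 import genes. The counts of import genes called, 1 higher and 1 lower, became 0 and 0 with ratios read as Cy5 over Cy3, 3 and 3 with a dye term, 3 and 0 with arrays not centred, 1 and 0 without moderation, and 2 and 3 at a threshold of 0.1. Without 1 array they ran from 1 to 2 in each direction: PAM16 was added without array 3 and SAM37 without array 2. The related genes, 7 higher and 2 lower, gave 0 and 0 with Cy5 over Cy3, 1 and 0 without moderation and 1 and 1 at a threshold of 0.01; none was called lower with arrays not centred, and without 1 array 1 to 7 were higher and 1 to 3 lower. Over all named genes, 529 higher and 482 lower, the counts were 0 and 0 with Cy5 over Cy3 and 661 and 615 with a dye term. They were 93 and 50 without moderation, and 234 and 156 at a threshold of 0.01. With arrays not centred 744 were higher and 55 lower, and a threshold of 0.1 gave 705 higher and 737 lower. Without 1 array, 240 to 508 were higher and 187 to 537 lower, with both lowest counts without array 4. Alternatives for the respiratory and ribosomal lists were added after seeing the data. The respiratory genes, 27 higher and 0 lower, gave 0 higher with Cy5 over Cy3, 3 without moderation and 18 to 28 without 1 array, and 0 lower in all of these. The ribosomal genes, 3 higher and 0 lower, gave 0 higher with Cy5 over Cy3, 10 higher and 2 lower with a dye term, 11 higher with arrays not centred, 1 and 1 without moderation, 0 higher at a threshold of 0.01 and 7 higher and 2 lower at 0.1; without 1 array 0 to 9 were higher and 0 to 1 lower. With arrays not centred the median of the import genes was 0.58, the same as that of all named genes. Ratios that then turned above 0 were those of TOM22 (0.52), TOM40 (0.29), TOM5 (0.07), TOM6 (0.36), SAM37 (0.07), MDM10 (0.52), TIM8 (0.57), TIM12 (0.58), TIM23 (0.25), TIM17 (0.37), MGE1 (0.47), TIM22 (0.44), TIM54 (0.25) and IMP1 (0.58). Read as Cy5 over Cy3, signs turned for TOM20 (-0.12), TOM70 (-0.17), TOM71 (0.11), TOM40 (0.01), TOM7 (-0.36), TIM10 (-0.42), TIM13 (-0.18), TIM17 (0.29), PAM16 (-0.44), TIM18 (-0.09), MAS1 (-0.37), IMP2 (-0.10), MBA1 (-0.26), BCS1 (-0.36) and HSP60 (0.42). Array weights turned TIM12 (0.003) and IMP2 (-0.00029). Leaving out 1 array turned the sign of TOM22 (-0.26 to 0.13), TIM10 (-0.05 to 0.32), TIM12 (-0.13 to 0.07), MGE1 (-0.38 to 0.01), MAS2 (-0.14 to 0.26), IMP1 (-0.15 to 0.13) and IMP2 (-0.06 to 0.23), none of which passed. Part of this is arithmetic. Without centring, every gene measured on all arrays is shifted up by the same amount, the mean of the deposited array medians. Reading the ratios as Cy5 over Cy3 reverses the sign of arrays 2 and 4. What lies behind the differences between arrays was not tested. Each ratio pairs an AAE13 culture with a ccdB culture on 1 array, so the test against 0 is already paired.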
